A study of Mus musculus with 8 samples.

Results

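Mouse chromosome 4 held 1253 regions that carried an ATAC-seq peak summit in all 8 libraries of the series, out of 18733 such always-open regions on all chromosomes and 68800 regions in all. A region was made by extending every summit by 150 bp to each side and merging what overlapped. The members were chosen by these calls, and the chromosome was selected on the scores, because earlier values of the same lists placed its always-open regions high in the libraries taken 8 and 12 days after drug withdrawal, so the levels given here describe the libraries and carry no test. The 1253 members are neighbours on 1 chromosome and share their libraries, and they are not replicates of a condition.

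ATAC-seq uses a transposase that inserts sequencing adapters into DNA not wrapped in nucleosomes, so a peak marks an accessible promoter or enhancer. Regions open at every stage of a course are commonly promoters of genes that most cells use, together with enhancers that a lineage keeps open. PU.1, encoded by Spi1, is an ETS-family transcription factor that drives myeloid differentiation, and loss of its dose is a known route to myeloid leukaemia in mice. Mouse chromosome 4 carries several genes that matter in leukaemia: the Cdkn2a and Cdkn2b tumour suppressor locus with its neighbour Mtap, the kinase gene Jak1, the transcription factor genes Tal1, Pax5 and Runx3, and the chromatin regulators Kdm1a, Arid1a and Hdac1.

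All 8 libraries came from AML246, a mouse acute myeloid leukaemia line grown with serum and IL-3, from 50000 cells each. Doxycycline (Dox, 0.1 µg/mL) restored PU.1 from day 0 and was withdrawn at day 12, after which PU.1 was again knocked down, per the labels. Total viable cells were taken untreated at day 0, at 4, 8 and 12 days on Dox, and at 4, 8 and 12 days off Dox after the 12 days on. A further library held CD11b-high cells sorted at day 12 on Dox. Each group had 1 library of 1 line, so no spread between replicates exists, no p-value is given, and a difference between times cannot be told apart from a difference between libraries. The sources used here do not give the construct behind the knockdown or the origin of the line. Of genes that mark the cells, Ptprc (CD45), Spi1 and Kit each had 2 regions open in all 8 libraries and Itgam (CD11b) had 1, whereas Csf1r, a macrophage receptor gene, had none. Cd3e, a T-cell marker, had 1 such region.

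The extraction text of the labels also mentions ChIP, but the series and the library preparation name ATAC-seq, and the libraries were taken as such. Each library was deposited as a list of summits with a score, taken to be −log10 of the caller's p-value or of its q-value. Between 31867 summits at 12 days off and 51060 at 4 days off lay on the 21 chromosomes. Because the score grows with sequencing depth, which is unknown here, each score was divided by the library's median over the 17480 always-open regions of the other chromosomes. The quotient is called the relative score, and a value of 1 is the typical always-open region elsewhere in that library. The log2 deviation is a region's log2 relative score minus its own mean over the 8 libraries. Intervals in parentheses are 95% intervals of a median over regions or of a share. Such intervals hold the counting error alone, and regions that lie close together can vary together.

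5 members over gene starts were picked to show the kinds of sequence behind the results: Jak1, Cdkn2c, Stil and Kdm1a are promoters rich in CpG and Ptafr is a myeloid receptor promoter poor in CpG. The windows run 5′ to 3′ in the sense of the gene, from 250 bases before to 50 after its RefSeq start, in RefSeq's GRCm38.p6 (mm10). They lie at chr4:101265174-101265473 on the minus strand (Jak1), chr4:109666707-109667006 minus (Cdkn2c), chr4:114999868-115000167 plus (Stil), chr4:132563817-132564116 plus (Ptafr) and chr4:136602674-136602973 minus (Kdm1a). Capitals mark matches, on either strand, to the CCAAT box, the GC box and the motif of NRF1, whose letters are spelled out further on.
Jak1: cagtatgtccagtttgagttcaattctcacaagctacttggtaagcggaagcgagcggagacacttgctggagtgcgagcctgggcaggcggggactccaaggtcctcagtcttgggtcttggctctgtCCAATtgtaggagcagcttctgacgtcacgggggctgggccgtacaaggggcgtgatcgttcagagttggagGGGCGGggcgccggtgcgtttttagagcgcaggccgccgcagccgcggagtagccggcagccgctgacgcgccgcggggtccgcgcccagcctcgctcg
Cdkn2c: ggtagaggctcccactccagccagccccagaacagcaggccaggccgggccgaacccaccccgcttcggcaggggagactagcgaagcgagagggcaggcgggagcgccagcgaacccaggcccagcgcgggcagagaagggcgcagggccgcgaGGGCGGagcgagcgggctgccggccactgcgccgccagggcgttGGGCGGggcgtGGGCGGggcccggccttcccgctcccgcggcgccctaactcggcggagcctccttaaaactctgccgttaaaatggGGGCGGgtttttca
Stil: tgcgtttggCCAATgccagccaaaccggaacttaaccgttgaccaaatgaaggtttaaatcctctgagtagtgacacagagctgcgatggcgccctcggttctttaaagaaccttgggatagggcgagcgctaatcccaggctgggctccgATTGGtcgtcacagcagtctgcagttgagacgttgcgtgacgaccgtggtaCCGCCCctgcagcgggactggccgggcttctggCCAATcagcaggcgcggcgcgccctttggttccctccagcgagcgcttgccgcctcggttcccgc
Ptafr: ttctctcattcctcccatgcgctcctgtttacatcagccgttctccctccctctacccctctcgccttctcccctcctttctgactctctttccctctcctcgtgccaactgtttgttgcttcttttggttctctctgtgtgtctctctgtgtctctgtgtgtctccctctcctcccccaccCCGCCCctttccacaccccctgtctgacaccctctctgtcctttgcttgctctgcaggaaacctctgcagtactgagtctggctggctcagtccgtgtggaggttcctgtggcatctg
Kdm1a: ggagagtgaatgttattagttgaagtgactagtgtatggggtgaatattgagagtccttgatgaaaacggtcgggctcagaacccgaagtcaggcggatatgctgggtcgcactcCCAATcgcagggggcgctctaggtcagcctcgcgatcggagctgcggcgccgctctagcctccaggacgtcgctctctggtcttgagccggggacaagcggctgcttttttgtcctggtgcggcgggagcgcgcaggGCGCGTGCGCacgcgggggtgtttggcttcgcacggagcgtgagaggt
The Cdkn2c window holds 4 GC boxes and 33 CpG pairs. The Stil window holds 3 CCAAT boxes and 1 GC box. The Ptafr window holds 6 CpG pairs and 5 copies of the ETS core GGAA, which was not put in capitals because nearly all promoters hold it. A match is a run of letters and was not shown here to be bound.

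The members as a whole stood near the level of the other chromosomes until 4 days off Dox and above it at 8 and 12 days off. Their median relative score was 1.02 at day 0 and 0.948, 1.02 and 1.06 after 4, 8 and 12 days on Dox. In CD11b-high cells it was 1.02, at 4 days off 1.06, then 1.18 (1.12 to 1.24) at 8 days off and 1.21 (1.15 to 1.27) at 12 days off. The intervals of the last 2 libraries lay above those of the other 6. Among 20 chromosomes, Y left out, chromosome 4 ranked 8 at day 0, 16 at day 4, 7 at day 8, 5 at day 12, 7 for the CD11b-high sort and 3 at 4 days off, and it ranked 1 at both 8 and 12 days off. The next highest chromosome was 5 in both, at 1.10 and 1.14. The raw median scores of the members were 24.8, 25.8, 27.0, 16.5, 16.5, 33.6, 29.6 and 20.1 in the same order, so the last library was not high before scaling.

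The position against other chromosomes within a library does not rest on the scaling. The members' median log2 deviation minus that of all other always-open regions was −0.05 at day 0, −0.07 after 4 days on Dox, −0.07 after 8 and −0.03 after 12, −0.05 among CD11b-high cells and 0.00 when Dox had been off for 4 days. It was 0.12 at 8 days off and 0.15 at 12 days off, which correspond to 1.09-fold and 1.11-fold. By this gap chromosome 4 ranked lowest of 20 at day 8 and highest at 8 and 12 days off. Because each region is set against its own mean over the 8 libraries, high late values lower the gaps of the other libraries by construction. A gap below 0 therefore does not show a low level. By relative score chromosome 4 stood at 1.02 and ranked 7 at day 8. The next highest gap was 0.01, on chromosome 6, at 8 days off and 0.04, on chromosome 5, at 12 days off. Other chromosomes also moved: from its lowest to its highest library the gap of chromosome 4 spanned 0.22, that of chromosome 11 spanned 0.22 and that of X spanned 0.24, from 0.14 at day 0 to −0.11 at 12 days off. Chromosome 4 was therefore not the most variable chromosome.

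**Figure D1:**
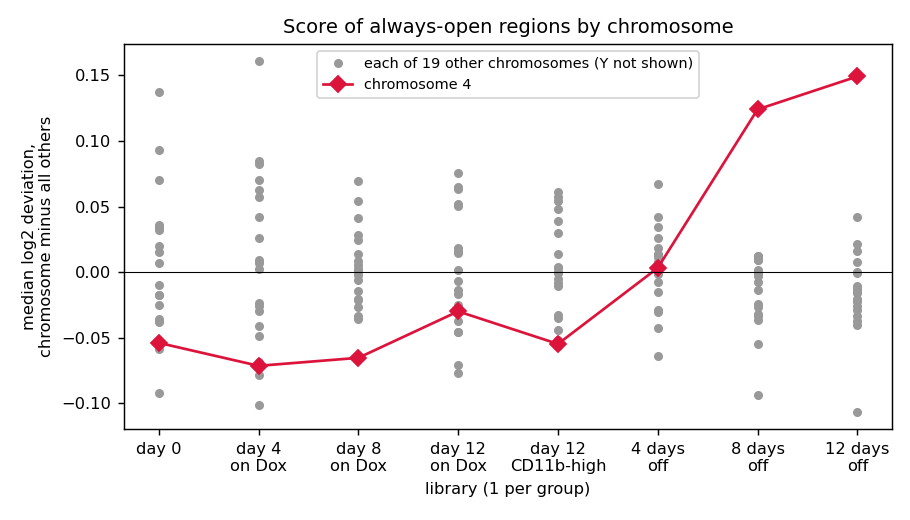
Median log2 deviation of always-open regions of each chromosome minus that of all other chromosomes (vertical axis, log2) in each of the 8 libraries (horizontal axis), with chromosome 4 as joined diamonds and each of 19 others as a grey point. Chromosome 4 lies at or below 0.00 up to 4 days off and above all others at 8 days off (0.12) and 12 days off (0.15).

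The shift was spread over the members and not carried by a few. The share of members above their own mean over the 8 libraries was 50.6% at day 0, 49.3% at day 4, 40.3% at day 8, 51.3% at day 12, 48.7% for the CD11b-high sort and 45.0% at 4 days off. It was 65.6% at 8 days off and 72.8% at 12 days off, against 47.0% and 57.7% of the always-open regions elsewhere. At 12 days off the quartiles of the members' relative scores ran from 0.697 to 1.97, against 0.531 to 1.79 at day 0. The lower quartile was also high at 4 days off, at 0.707, and the upper one was 1.88 at day 4. A raised lower quartile was therefore not particular to the late libraries.

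In 113 members the scores at 8 and 12 days off were both higher than in each of the other 6 libraries, which is 9.02% of members against a background of 3.66% of always-open regions of all chromosomes. In 9 members (0.718%) both were lower than in each of the other 6, against a background of 2.99%. With Y left out of both counts, no other chromosome reached 9.02% in the first, the next being chromosome 9 with 4.60%, and none had a lower share in the second. Of the 113, 36 lay near a gene end and 77 away from one. This count was chosen after the values were seen, and it depends on the scaling: with libraries scaled by all their summits, 28 members (2.23%) were higher, against 0.875% of all always-open regions.

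Counts of members past 1.5-fold against day 0 rest on the same scores that picked out the chromosome and add no separate support. All 7 comparisons share the single day-0 list. At day 4, 139 members (11.1%) were at least 1.5-fold higher than at day 0, against a background of 11.7%, and 198 (15.8%) were lower, against 15.3%. At day 8 the higher members were 247 (19.7%, background 19.5%) and the lower 205 (16.4%, background 16.5%). At day 12 they were 300 (23.9%, background 21.7%) and 217 (17.3%, background 19.3%). In CD11b-high cells they were 264 (21.1%, background 20.9%) and 226 (18.0%, background 18.5%). These shares sit near their backgrounds. At 4 days off 313 members (24.98%) were higher, against 21.8%, and 203 (16.2%) were lower, against 19.5%. At 8 days off 309 (24.7%) were higher, against 16.7%, and only 50 (3.99%) were lower, against 10.7%. At 12 days off 293 (23.4%) were higher, against 15.5%, and 53 (4.23%) were lower, against 10.6%.

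At 2-fold against day 0, the higher members were 49 (3.91%, background 4.51%) at day 4, 130 (10.4%, background 11.2%) at day 8, 164 (13.1%, background 12.2%) at day 12 and 134 (10.7%, background 11.4%) in CD11b-high cells. They were 173 (13.8%, background 11.9%), 136 (10.9%, background 7.28%) and 123 (9.82%, background 6.01%) at 4, 8 and 12 days off. The lower members were 97 (7.74%, background 6.93%), 59 (4.71%, background 4.62%), 70 (5.59%, background 7.69%) and 74 (5.91%, background 7.31%) in the libraries on Dox, then 47 (3.75%, background 5.5%), 5 (0.399%, background 2.12%) and 15 (1.20%, background 2.72%) off Dox.

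A pair of contrasts without day 0 was added after the values were seen. From 4 to 8 days off, 157 members (12.5%) were at least 1.5-fold higher, against a background of 9.89%, and 92 (7.34%) were lower, against 11.4%. The members' median log2 difference there was 0.17, against 0.03 elsewhere. From day 12 on Dox to 12 days off, 302 members (24.1%) were higher, against 18.3%, and 153 (12.2%) were lower, against 17.6%. Their median log2 difference was 0.20, against 0.03 elsewhere, and 806 members (64.3%) lay above 0, against 51.7% elsewhere.

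The shift ran along the length of the chromosome. Cut into 10 Mb windows, 15 of 16 windows held at least 20 members, and the window from 70 to 80 Mb held 10. All 15 lay above the other chromosomes at 8 days off, with gaps from 0.03 to 0.25 and a median of 0.11. All 15 also did so at 12 days off, with gaps from 0.03 to 0.28 and a median of 0.15. On the other chromosomes, 72 of 231 such windows (31.2%) were above 0 in both libraries. At 12 days off, 4 of those 231 windows (1.73%) lay above the median window of chromosome 4. In the 6 other libraries, windows above the other chromosomes numbered 2 at day 0, 3 at day 4, 2 at day 8, 9 at day 12, 6 for the CD11b-high sort and 9 at 4 days off. High late values lower the deviations in these 6 libraries by construction, so low counts there do not show a low level.

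**Figure D2:**
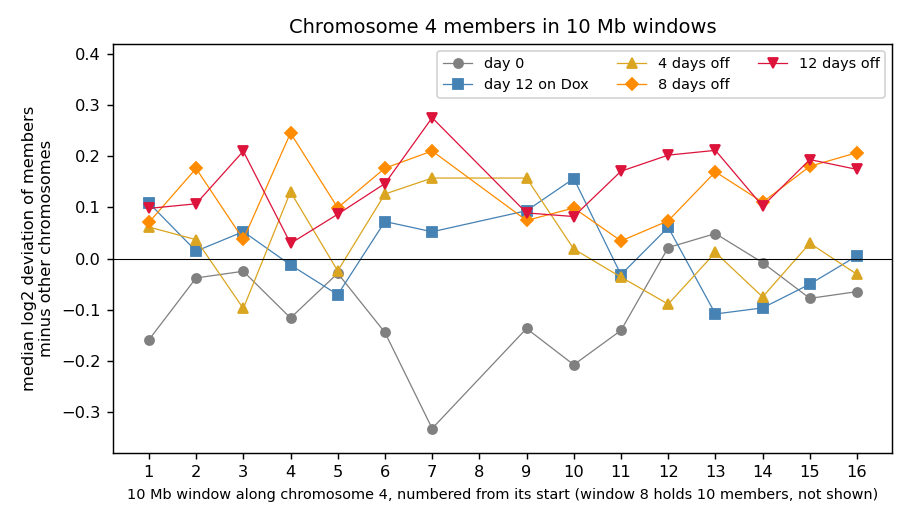
Median log2 deviation of members minus that of other chromosomes (vertical axis, log2) in 15 windows of 10 Mb along chromosome 4 (horizontal axis, window number), for 5 of the 8 libraries as joined points. The points for 8 and 12 days off are above 0 in every window, while those for day 0, day 12 and 4 days off fall on both sides.

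Windows differed in size of shift. The highest window at 12 days off ran from 60 to 70 Mb, with a gap of 0.28 over 33 members, and it was also the lowest at day 0, at −0.33. The highest at 8 days off ran from 30 to 40 Mb, with 0.25 over 30 members, and the same window was the lowest at 12 days off, with 0.03. The 2 late libraries thus differed in which windows were highest. The largest window held 215 members, from 130 to 140 Mb, and contains Kdm1a, Id3, Runx3, Arid1a and Ptafr.

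Members near a gene end, meaning within 1 kb of either end of a protein-coding gene, numbered 544 and had scores above those away from gene ends, which numbered 709. The latter comprised 387 inside genes and 322 outside them, and 42 members had no such gene within 100 kb. Near gene ends the median relative score of members was 1.76 at day 0, 1.84 at day 4, 1.44 at day 8, 1.49 at day 12, 1.48 for the CD11b-high sort and 1.387 at 4 days off. It was 1.65 at 8 days off and 1.83 (1.73 to 1.93) at 12 days off. On other chromosomes the corresponding values were 1.65, 1.75, 1.31, 1.34, 1.38, 1.22, 1.37 and 1.5. In relative score, gene ends everywhere were thus lower from day 8 on Dox to 4 days off than at day 0 and day 4. Regions away from gene ends stood higher in the same libraries, as given below. The 2 classes thus lay closer together, and a loss of raw score at gene ends is not shown. Gene ends of chromosome 4 stood near their day-0 level at 12 days off, while those elsewhere stood at 1.5 against 1.65 at day 0.

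Away from gene ends the members' median was 0.649 at day 0, 0.601 at day 4, 0.783 at day 8, 0.805 at day 12, 0.759 in CD11b-high cells, 0.867 at 4 days off, 0.893 at 8 days off and 0.854 (0.811 to 0.906) at 12 days off. Elsewhere it was 0.674, 0.635, 0.815, 0.811, 0.794, 0.851, 0.786 and 0.740. The gaps in log2 deviation were alike in both kinds of member: 0.13 near and 0.13 away at 8 days off, and 0.14 near and 0.15 away at 12 days off. Members inside genes had 0.12 and 0.16 in the 2 libraries and those outside genes 0.13 and 0.14. The gap did not belong to weak or strong members alone, since the 4 quartiles of day-0 score had gaps of 0.16, 0.13, 0.13 and 0.11 at 8 days off and 0.22, 0.12, 0.16 and 0.12 at 12 days off.

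**Figure D3:**
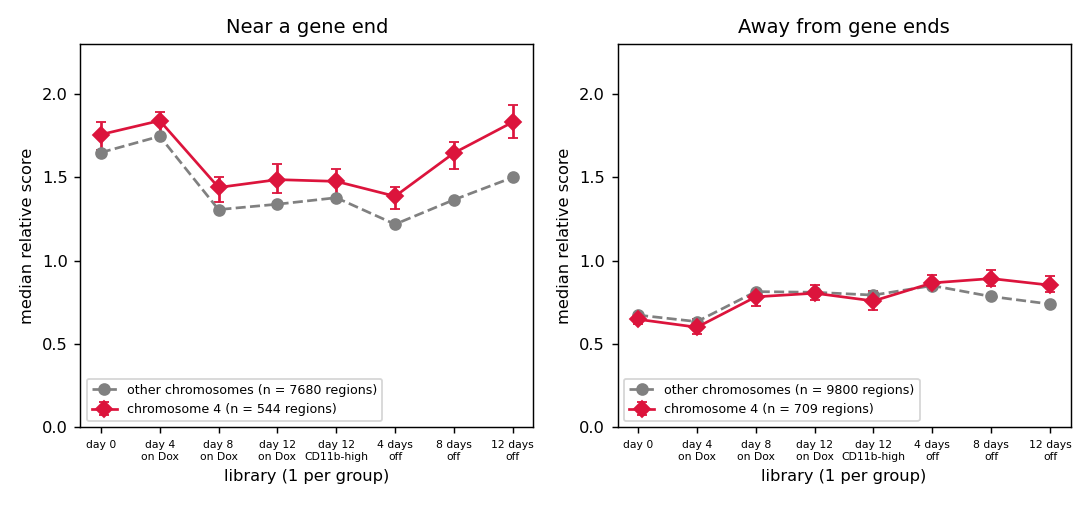
Median relative score (vertical axis, 1 is the median always-open region of other chromosomes) near gene ends (left, 544 members) and away from them (right, 709 members) in each library, with 95% intervals over regions; grey points give the same classes on other chromosomes. Near gene ends the members stand above the grey points in all 8 libraries and farthest above at 8 and 12 days off; away from gene ends they stand above them at 4, 8 and 12 days off.

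Calls were also counted over all summits and over the regions that the rule for members left out. These calls come from the same 8 lists whose scores picked out the chromosome, so they add no separate support. Chromosome 4 took 6.62% of summits at day 0, 6.49% at day 4, 6.30% at day 8, 6.47% at day 12, 6.26% for the CD11b-high sort and 6.70% (6.48 to 6.92) at 4 days off. It took 7.31% (7.07 to 7.57) at 8 days off and 7.46% (7.18 to 7.76) at 12 days off, above the intervals of the other 6 libraries. The mean of the 2 late shares was 1.14 times that of the other 6, whereas for the other chromosomes apart from Y this ratio ran from 0.893 on X to 1.04 on chromosome 5. In every 10 Mb window the ratio was above 1, from 1.04 to 1.22, and in 11 of the 16 windows both late libraries were above all of the other 6. In the other 5 windows (numbers 1, 4, 6, 7 and 10) they were not. Summit shares were not counted in windows of the other chromosomes, so these window counts have no background.

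Among 3373 chromosome 4 regions open in 1 to 7 libraries, 32.6% were open at day 0, against 33.4% of 46694 such regions elsewhere. The share was 28.8% against 31.7% at day 4, 48.7% against 54.7% at day 8, 28.3% against 30.9% at day 12 and 28.1% against 33.1% in CD11b-high cells. It was 62.5% on both sides at 4 days off. At 8 days off it was 51.1% (49.4 to 52.8) against 43.2%, and at 12 days off 32.1% (30.6 to 33.7) against 24.3%. Chromosome 4 held 10.9% of all regions open only at 8 days off and 11.2% of those open only at 12 days off, against 4.74% to 6.73% in the other 6 libraries. Conversely, of regions missing only at 8 days off 2.55% lay on chromosome 4, and of those missing only at 12 days off 3.76%, against 5.63% to 9.41% in the others. Some of these counts are small: the 2.55% rests on 4 regions of chromosome 4, and the 9.41%, at day 8, on 8.

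**Figure D4:**
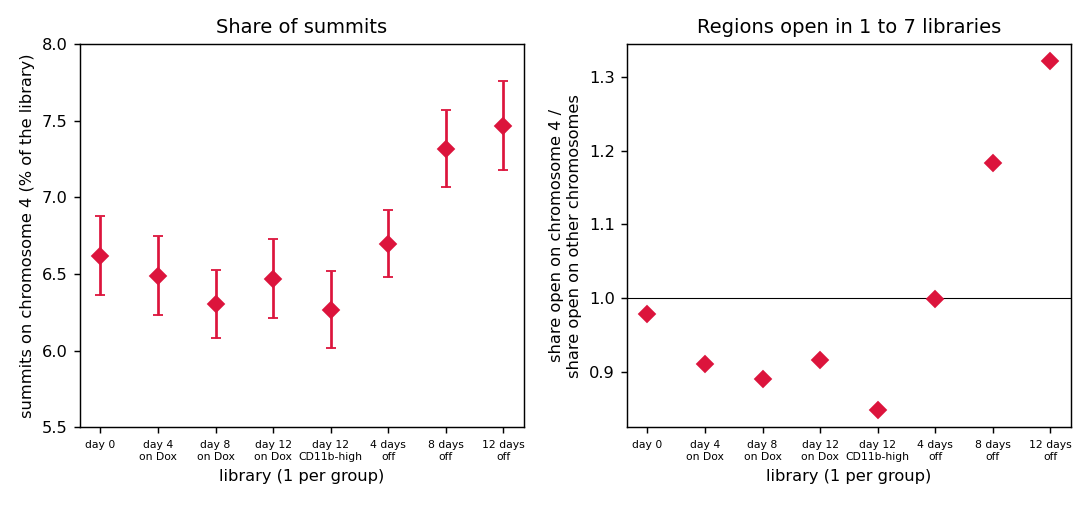
Left, percent of each library's summits on chromosome 4 (vertical axis starting at 5.5%) with exact 95% binomial intervals; right, the share of chromosome 4 regions open in that library over the same share elsewhere, for regions open in 1 to 7 libraries. Both are highest at 8 days off (7.31% and 1.18) and 12 days off (7.46% and 1.32).

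The threshold for membership was a summit in all 8 lists. Just outside it, 315 chromosome 4 regions were open in 7 libraries, with a median relative score of 0.424, against 1.07 for members. The lowest score of a member in any library was 1.68, and 23 members had a score under 3 somewhere. Members made up 27.1% of the regions of chromosome 4, and always-open regions 27.2% of those elsewhere. In shape they were like the rest: a median length of 401 bp against 407 bp, and 87.9% against 88.3% with a single summit per library.

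By sequence the members over promoters were like always-open promoters elsewhere. A RefSeq promoter window was overlapped by 455 members (36.3%), against 6843 (39.1%) elsewhere. Their windows had a median GC content of 62.7% and 23 CpG pairs, against 61.7% and 22 elsewhere and 52.7% and 7 over all 32851 RefSeq windows of the same 300 bases. The GC box (GGGCGG) was in 75.2% of member windows, 69.9% of other always-open windows and 35.7% of all windows. The CCAAT box was in 42.6%, 41.2% and 37.4%. The motif of NRF1, which activates genes of respiration (the letters GCGC on each side of any 2 bases), was in 16.5%, 15.5% and 6.23%. The ETS core GGAA was in 93.6%, 95.4% and 96.0%, and the longer PU.1-like GAGGAAGT, which contains that core, in 2.42%, 3.14% and 3.20%. Motifs of other blood factors were less common in always-open windows, of chromosome 4 or elsewhere, than in all windows. The RUNX motif TGTGGT was found in 11.9% of member windows, 12.5% of other always-open windows and 16.8% of all. The AP-1 motif, TGA and TCA around any single base, was found in 2.86%, 4.38% and 7.81%. The C/EBP motif TTGCNNAA stood in 7.69%, 7.96% and 10.8%, and the GATA motif AGATAA stood in 3.96%, 5.22% and 11.2%. The CTCF-like CCACNAGG was in 6.59%, against 5.48% of other always-open windows and 4.99% of all. All motifs were searched on both strands.

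The gap was found over promoters with and without the GC box. Members over a promoter window had gaps of 0.12 at 8 days off and 0.14 at 12 days off, and members over none had 0.14 and 0.14. At 12 days off the 342 members with a GC box had a median log2 deviation of 0.24, against 0.10 for such regions elsewhere, and the 113 without one had 0.23, against 0.08. The 11 members with a PU.1-like match had 0.16, against 0.08 elsewhere. Summits of the 455 lay a median of 30 to 35 bp before the annotated start in all 8 libraries, with lower quartiles from −98.5 to −87.5 bp and upper quartiles from −1.5 to 9 bp. The summits of a single member were spread over a median of 94 bp between libraries, against 101 bp elsewhere.

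To follow members by role, 6 gene lists of chromosome 4 with 71 genes in all were used, and a member went to its closest protein-coding gene if that lay within 100 kb. In all, 58 genes had 146 members out of 528 regions of any kind, and 48 members lay near a gene end. From day 12 on Dox to 12 days off, 33 of the 146 were at least 1.5-fold higher (background 18.3%) and 24 were lower (background 17.6%), with a median log2 difference of 0.14 against 0.20 for all members. Over the 146 members, the highest of the 8 relative scores fell at 12 days off in 32 (21.9%, against 13.2% of always-open regions elsewhere). It fell at day 12 on Dox in 29 (19.9%, elsewhere 14.9%), at 8 days off in 22 (15.1%, elsewhere 6.58%) and at day 4 in 18 (12.3%, elsewhere 21.1%). In CD11b-high cells it fell in 17 (11.6%, elsewhere 14.0%) and at 4 days off in 17 (11.6%, elsewhere 10.3%). At day 0 it fell in 6 (4.11%, elsewhere 12.8%) and at day 8 in 5 (3.42%, elsewhere 7.12%). Over all 1253 members it fell at 12 days off in 330 (26.3%), against 13.2% of always-open regions elsewhere, and at 8 days off in 137 (10.9%), against 6.58%. Many genes had several members with different courses, so a member named with a gene does not stand for the gene. A gene-end member can also overlap the promoter window of another gene. Those at Cdkn2a, Runx3 and Jun overlap windows of Gm12610, Gm16225 and Junos, and the one at Slc31a1, named further on, overlaps one of Fkbp15. Genes with no member included Tal1, Pax5, Runx1t1, Klf4, Prdm16, Csf3r, Fgr, Cdkn2b, Cd52, C1qa, C1qb and C1qc. None of these had a region called in all 8 lists.

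Blood transcription factor genes had 36 members at 11 of 16 genes. From day 0 to day 12 on Dox, 17 of the 36 were at least 1.5-fold higher (background 21.7%) and 3 lower (background 19.3%), with a median log2 difference of 0.49. From day 12 to 12 days off, 6 were higher (background 18.3%) and 7 lower (background 17.6%), with a median of −0.11. Of the 36, 9 lay near a gene end. From day 0 to day 12 all members away from gene ends rose in median from 0.649 to 0.805. Those near a gene end fell from 1.76 to 1.49. The backgrounds mix both classes, so gene role was not separated from place in these counts. Runx3 had 5 members. The one at its end (chr4:135120282-135120715), at this gene of a RUNX factor of lymphoid and myeloid cells, had relative scores of 2.54 at day 0, 3.13, 2.74 and 3.25 at 4, 8 and 12 days on Dox, 2.76 in CD11b-high cells, and 2.57, 2.55 and 2.48 at 4, 8 and 12 days off. It was strong throughout and ended lowest of the 8. A member 50575 bp outside Runx3 had 1.27, 1.18, 1.64, 2.22, 2.44, 1.99, 1.90 and 2.03 in the same order, so it was low at day 0 and day 4 and stood higher in the 6 later libraries.

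Jun encodes a subunit of AP-1 and had 4 members. Its gene-end member (chr4:95052065-95052534) had 1.56, 1.84, 1.29, 2.08, 1.99, 1.32, 1.31 and 1.93, with day 12 highest and day 8, 4 and 8 days off lowest. A distal member assigned to Jun, 96697 bp away, had 0.22, 0.19, 0.47, 1.18, 0.74, 0.27, 0.43 and 0.26, highest in the 2 libraries of day 12, whereas a member 23632 bp away was highest at 12 days off, at 2.36. The remaining Jun member, 1064 bp outside the gene, had 0.44, 0.41, 0.58, 0.83, 0.70, 0.43, 0.33 and 0.33, lowest at 8 and 12 days off. At Bach2, a repressor that limits plasma and myeloid programmes, the gene-end member (chr4:32238283-32238884) had 0.85, 0.48, 0.40, 0.62, 0.23, 0.86, 0.80 and 1.08, lowest in CD11b-high cells and highest at 12 days off, whereas the member inside the gene was highest at 8 days off, at 1.23. Id3 encodes an inhibitor of bHLH factors and had 3 members. The one 26618 bp outside it (chr4:136117001-136117407) had 0.88, 0.68, 0.79, 0.40, 0.39, 0.69, 0.93 and 1.53, with both day-12 libraries lowest and the 2 late libraries highest.

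Receptor and signalling genes had 27 members at 10 of 13 genes, 5 of them at least 1.5-fold higher (background 18.3%) and 7 lower (background 17.6%) from day 12 to 12 days off. The Jak1 promoter member (chr4:101265090-101265497), at the gene for a kinase of cytokine receptors, had 2.22, 2.48, 1.88, 2.1, 2.89, 1.91, 2.04 and 2.67. It was highest for the CD11b-high sort and next highest at 12 days off. The other 3 Jak1 members were highest at 4 days off, for the CD11b-high sort and at 12 days off. Mtor encodes the kinase that links nutrients to growth, and its gene-end member (chr4:148448223-148448690) had 2.22, 2.82, 2.16, 2.34, 1.73, 1.90, 2.39 and 3.13, highest at 12 days off.

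Members at 1 gene could differ in course, as at the myeloid receptor genes. The Ptafr promoter member (chr4:132563938-132564333), at the gene for the platelet-activating factor receptor, had 0.40 at day 0, 0.99, 1.54 and 1.75 at 4, 8 and 12 days on Dox, 1.78 in CD11b-high cells, and 1.48, 0.97 and 0.77 at 4, 8 and 12 days off. It was higher at each time on Dox and lower at each time off, and at 12 days off it was still above day 0. The other Ptafr member, outside the gene, was highest at day 12 on Dox, at 1.51. Tnfrsf1b encodes a TNF receptor of leukocytes and had 5 members. One inside the gene (chr4:145240670-145241312) had 0.53, 1.53, 1.85, 2.16, 1.96, 1.66, 0.94 and 1.03, also highest at day 12 on Dox. Of the other 4, one inside the gene was highest at 12 days off, at 1.11, another inside it at 8 days off, at 1.20, and the gene-end member in CD11b-high cells, at 1.36, as was the one outside. The Lyn kinase acts below myeloid immunoreceptors. A member 17899 bp outside Lyn (chr4:3660004-3660334) had 1.04, 0.41, 0.67, 0.70, 0.78, 0.95, 1.12 and 1.58, low at day 4 and highest at 8 and 12 days off. The other Lyn member, at the gene end, was highest at 4 days off, at 1.59.

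Myeloid genes had 5 members at 3 of 7 genes, too few to describe as a group. The member inside Padi4 (chr4:140771115-140771486), which encodes the enzyme that citrullinates histones in neutrophils, had 0.47, 0.21, 0.72, 1.16, 0.99, 0.98, 0.89 and 0.52. Laptm5, the gene for a lysosomal protein of blood cells, had 3 members, and the one 1263 bp inside it had 1.04, 0.94, 1.54, 1.95, 1.27, 1.25, 1.44 and 1.13. Both were highest at day 12 on Dox. The other 3 members were not: the Laptm5 gene-end and distal members were highest at 12 days off, at 0.818 and 0.602, and the Padi2 gene-end member at day 4, at 0.861.

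Cell-cycle, survival and tumour suppressor genes had 27 members at 14 of 15 genes. From day 12 to 12 days off, 10 of the 27 were at least 1.5-fold higher (background 18.3%) and 2 lower (background 17.6%), with a median log2 difference of 0.34. Over all members of the chromosome 24.1% were higher and 12.2% lower in this contrast. Of the 27, 12 lay near a gene end, and gene role was not separated from place or from the chromosome in these counts. From day 0 to day 12 on Dox, 4 were higher (background 21.7%) and 5 lower (background 19.3%). The Cdkn2a member (chr4:89294658-89295334), at one end of the gene that encodes the p16INK4a and p19ARF suppressors, had 0.99, 0.33, 0.87, 0.64, 0.60, 0.96, 1.13 and 1.18. It was lowest at day 4, and both late libraries were above the other 6. Mtap, a methionine salvage gene beside it, had a gene-end member (chr4:89137210-89137555) with 1.87, 0.97, 0.76, 0.93, 1.47, 1.11, 1.26 and 1.87, equal at day 0 and 12 days off to 2 decimals. A further member assigned to Mtap, 93160 bp outside the gene, had 1.28, 0.41, 1.42, 1.59, 1.48, 2.16, 2.35 and 2.60, with all 3 libraries off Dox highest. Of the other 2 assigned to Mtap, one was highest at 12 days off, at 0.906, and one at day 12 on Dox, at 1.12.

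Cdkn2c encodes the p18INK4c inhibitor of CDK kinases. Its promoter member (chr4:109666653-109666989) had 1.61, 1.67, 2.21, 1.59, 2.59, 1.77, 1.60 and 2.65, high at day 8, at 12 days off and in the CD11b-high sort. The other Cdkn2c member was highest at 8 days off, at 0.493. Stil is a centriole assembly gene next to Tal1, and its promoter member (chr4:114999857-115000258) had 2.81, 2.55, 2.28, 2.83, 2.62, 2.37, 2.63 and 3.24, highest at 12 days off. The member inside Trp73 (chr4:154105282-154105828), a gene of the p53 family, had 0.50, 0.58, 0.73, 0.58, 0.62, 0.77, 0.98 and 1.37, with the 2 late libraries above the rest. Ccnc encodes a cyclin of the Mediator complex. A member 15324 bp outside it (chr4:21712150-21712604) had 1.02, 0.63, 0.71, 0.75, 0.98, 1.29, 1.21 and 2.1. It was highest at 12 days off, as was the gene-end member, at 2.5, while the member inside Ccnc was highest at day 8, at 1.3. Cdc20, the mitotic activator of the anaphase-promoting complex, had a gene-end member (chr4:118437238-118437625) of the opposite kind: 2.06, 2.35, 1.75, 1.84, 2.41, 1.69, 1.44 and 1.66, lowest at 8 and 12 days off. It was singled out after its values were seen.

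Chromatin and RNA regulators had 39 members at all 12 genes, 13 of them at Chd7, a chromatin remodeller, which had more members than any other gene of the chromosome. From day 12 to 12 days off, 7 of the 39 were at least 1.5-fold higher (background 18.3%) and 5 lower (background 17.6%), with a median log2 difference of 0.03. The first share is near its background. Kdm1a encodes the histone demethylase LSD1. Its gene-end member (chr4:136602577-136602980) had 1.74, 1.85, 1.29, 1.26, 1.96, 1.08, 1.45 and 1.77. A member inside Kdm1a (chr4:136570020-136570616), 15593 bp from the nearer end, had 1.23, 0.33, 0.42, 0.56, 0.55, 0.74, 1.48 and 1.98. It was low in all libraries on Dox and was 4.71-fold higher at 12 days off than at day 8, while the gene-end member was less than 2-fold apart between any of its 8 values.

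Arid1a encodes a subunit of the BAF remodelling complex, and its gene-end member (chr4:133756639-133757055) had 1.04, 0.64, 0.82, 0.45, 0.54, 0.56, 0.75 and 1.0. It was lowest at day 12 and nearly the same at day 0 and 12 days off. The member inside Arid1a was highest at day 4, at 1.43. Hdac1, the gene of a histone deacetylase, had a gene-end member with 2.34, 2.29, 1.93, 2.02, 2.13, 1.78, 2.31 and 2.06, steady throughout. At Mllt3, which encodes a super elongation complex subunit and is a fusion partner in leukaemia, the gene-end member had 1.68, 1.82, 1.57, 1.90, 1.61, 1.14, 1.54 and 1.66. The member inside Mllt3 was highest at 8 days off, at 1.56. Spen, the gene of a corepressor, had 4 members. One inside it (chr4:141506321-141506757) had 0.48, 0.49, 0.88, 1.02, 0.98, 0.96, 0.80 and 0.22. It was highest at day 12 and lowest at 12 days off, whereas the Spen gene-end member was highest at 12 days off, at 2.46.

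**Figure D5:**
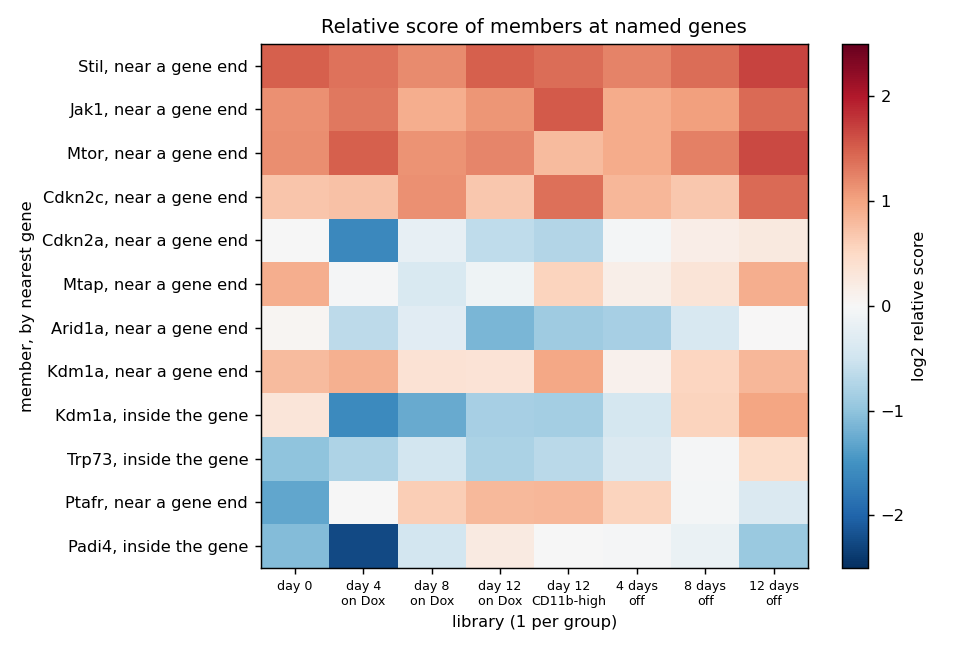
Log2 relative score (colour, red above 0 and blue below) of 12 members at named genes (vertical axis) in each library (horizontal axis); these 12 were picked to show the different courses after their values were seen. Stil, Jak1, Mtor and Cdkn2c stay above 0 in all 8 libraries, Kdm1a inside the gene and Trp73 are highest at 12 days off, and Ptafr and Padi4 are highest in the middle of the course.

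Genes that every cell uses had 12 members at all 8 genes, 7 of them near gene ends. From day 12 to 12 days off, 4 of the 12 were at least 1.5-fold higher (background 18.3%) and 1 lower (background 17.6%), with a median log2 difference of 0.52. From day 0 to day 12 the median was −0.21, with 1 higher (background 21.7%) and 3 lower (background 19.3%). All members near gene ends had medians of 1.76 at day 0, 1.49 at day 12 and 1.83 at 12 days off. Gene role was therefore not separated from place here either. The Rps6 member, at a ribosomal protein gene, had 1.67, 2.13, 1.69, 1.60, 2.0, 1.46, 1.85 and 2.24. The Rpl11 member, at another, had 2.35, 2.65, 1.54, 1.56, 1.31, 1.68, 2.40 and 2.28, lower from day 8 to 4 days off than before or after. The Cap1 gene-end member, at an actin regulator gene, had 2.67, 2.62, 2.22, 2.20, 3.11, 1.99, 2.53 and 3.39, and a member inside Eno1, a glycolysis gene, had 1.16, 0.98, 0.46, 0.53, 0.97, 0.85, 1.10 and 1.66. These members of Cap1 and Eno1 were highest at 12 days off. The Eno1 gene-end member had 1.88, 2.16, 1.68, 1.71, 1.99, 1.61, 1.69 and 1.97, highest at day 4, and the member inside Cap1 was highest at 4 days off, at 0.871.

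Outside the lists, members were named by size of change, by strength and by steadiness. The libraries with the lowest and highest members' median deviation were day 8 and 12 days off. Between them the largest rises included Gm46866, from 0.238 to 1.45 or 6.09-fold, a member inside Kdm1a (4.71-fold), one at Vwa1, an extracellular matrix gene (4.70-fold), and one inside Plekhg5 (4.69-fold). At Gm46866 the region also overlaps a promoter window of Glis1, and the values were 0.957, 0.30, 0.238, 0.207, 0.391, 0.835, 1.04 and 1.45. The members at Gm46866 and inside Kdm1a were high at day 0, low on Dox and high again at 12 days off, whereas Plekhg5 had 0.605 at day 0 and 1.48 at 12 days off.

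The largest falls between the same libraries were at Sdr16c5, from 1.27 to 0.177 (ratio 0.139), inside Zcchc7 (0.192), Tdrd7 (0.237) and Spen (0.246), and near a gene end at Acot11 (0.227). Sdr16c5 encodes a retinol dehydrogenase, and its member, 14317 bp outside the gene, had 0.336, 0.793, 1.27, 1.21, 1.33, 0.669, 0.698 and 0.177. All 5 stood higher at day 8 and day 12 on Dox than at day 0 and at 12 days off. Falls between these libraries run against the direction of the chromosome as a whole by the way they were picked. These rankings used the same values that they describe.

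The strongest members lay at the ends of Invs, a ciliary gene, Ripk2, the kinase of NOD receptors, 9430015G10Rik, Slc31a1, a copper transporter gene, and Focad, with relative scores from 2.46 to 4.64 over the 5 members and 8 libraries. The steadiest, by the SD of log2 relative score over the 8 libraries, included Grhpr (0.10), Ints8 (0.11), Srm (0.12) and Eri3 (0.12). Grhpr, a glyoxylate reductase gene, had 1.93, 2.04, 1.74, 1.88, 1.87, 1.93, 1.77 and 1.65, so that the late libraries were not high at this member.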

How the data were processed

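Peak summits were deposited for 8 libraries, 1 per group, taken as ATAC-seq although the labels' extraction text also mentions ChIP. The tools were MACS2 and Picard 2.14.0 and the build mm10, per the submitters' processing notes. The sources used here name no aligner and no read depth. The score that the authors deposited was taken to be −log10 of the caller's p-value or of its q-value, since its smallest values fall at 0.05. Each library had its own calls, and a region lacking a summit was uncalled, which does not show it closed.

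Summits were extended by 150 bp and merged, and a region took its highest score per library. Python 3.11.15 with numpy 2.4.6, pandas 2.3.3 and scipy 1.17.1 was used. Gene spans and promoter windows came from RefSeq GRCm38.p6, without exons. The code was tested on simulated scores with a known shift over the always-open regions, and the merging on a small made-up list. Peak calling and membership were not simulated. Named genes were those of 6 lists, the 5 strongest, the 5 steadiest and the 5 with the largest rise and fall between the libraries of lowest and highest median deviation. The members and lists were chosen with earlier results of these data known. Alternatives covered region width, score minimum, scaling, window size, distance and fold. Some items that these rules select are left out of the text.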

Additional observations from a re-analysis of the deposited data

How the results depend on the processing

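Of 222 values recomputed under alternatives, 187 stayed within the limits set for each kind of value (the 95% interval of a median or share, the same side for a percentile rank, or 1.5 times a count), 32 moved past them and 3 reversed from a value whose interval excluded 0. Apart from scaling by all summits, the median deviation changed sign in 3 of 40 values, all near 0: at day 4 from −0.010 to 0.0068 and 0.0010, and at day 0 from 0.0035 to −0.026. The cause was not tested except where the alternative's construction shows it. Scaling by all summits of the other chromosomes gives a lower divisor, and the members' median relative score became 2.1 at day 0, 2.05, 2.31 and 1.76 at 4, 8 and 12 days on Dox, 1.75 in CD11b-high cells, and 2.70, 2.54 and 1.98 at 4, 8 and 12 days off. Under that scaling the median log2 deviation became 0.067, 0.097, 0.081, −0.26, −0.23, 0.29, 0.20 and −0.076 in the same order, against 0.0035, −0.010, −0.087, 0.010, −0.010, −0.055, 0.10 and 0.21. Its sign thus changed in 5 libraries, at 4, 8 and 12 days on Dox and at 4 and 12 days off, and members higher in both late libraries than in the other 6 numbered 28. The 2 late libraries were then no longer highest. They were highest in the other 7 of 8 settings for the relative score, in 6 of 7 for the deviation and in 4 of 4 for the share of summits, the last including lists cut to equal length, which was added after the data were seen. The gap to the other chromosomes within a library cannot change with scaling, and over 7 settings it ran from 0.12 to 0.13 at 8 days off and from 0.14 to 0.15 at 12 days off. These settings include the main one and the alternative scalings, which repeat its gap by construction and add no support. With near taken as within 5 kb, the near median was 1.60 at day 0, 1.36 at day 12, 1.52 at 8 days off and 1.65 at 12 days off. At 2-fold against day 0, 49, 130, 164, 134, 173, 136 and 123 members were higher and 97, 59, 70, 74, 47, 5 and 15 lower, for day 4, day 8, day 12, CD11b-high cells and 4, 8 and 12 days off, with the shares over all always-open regions given above. No paired analysis was possible because each group holds 1 library and no result comes from a test, and for the same reason no library could be left out of a group. Read depth is unknown, so weak scores cannot be told apart from shallow sequencing.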

Other observations

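Between 85 and 121 summits per library lay on contigs other than the 21 chromosomes and were not analysed here.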
